A study of Sus scrofa with 20 samples.

Results

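The genes described here encode subunits of the GABA-A receptor, and their transcripts were measured in the hypothalamus of 20 adult German Landrace pigs. In all, 7 subunit genes were listed by symbol (GABRA2, GABRA3, GABRA4, GABRA5, GABRB1, GABRB2 and GABRG1), and every probe set of the array that the platform annotation assigns to one of them was taken, whatever its value. This gave 10 probe sets for 6 of the 7 genes, among 47845 probe sets in all. The annotation names no probe set for GABRA5, whose level was therefore not analysed here. The animals were 10 low-reactive (LR) and 10 high-reactive (HR) pigs, each hybridised to 1 Affymetrix Snowball array. The study chose extreme animals by how they struggled in a backtest as piglets, and also by haplotype at a coping-associated region of chromosome 12, so that behaviour and haplotype cannot be told apart in these groups. The hypothalami were dissected as whole pieces of tissue and no treatment is named. The labels state neither the sex of an animal nor a hybridisation batch.

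The GABA-A receptor is a chloride channel opened by the transmitter GABA, and it carries most fast inhibition in the brain. Its subunits join around a central pore, most often as alpha, beta and gamma types, and the combination sets where the receptor sits, how long the channel conducts and which drugs and neurosteroids act on it. In the hypothalamus of mammals GABA is the main inhibitory transmitter and restrains the neurons that start the hormonal response to stress.

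Values are given on the log2 scale as deposited, after robust multichip averaging (RMA), so that a difference of 1 is a 2-fold change of signal. Array medians lay between 5.14 and 5.26. The 20 arrays differed mainly along a first principal component that held 64.7% of the variance and that followed, with a correlation of 0.982 in size, the mean signal of the 69 background controls on the array, sequences without a counterpart among known transcripts. This background control mean lay between 3.68 and 4.44, with 4.01 ± 0.17 in LR and 4.09 ± 0.26 in HR (SD, n = 10 each). Of the 47722 probe sets that are not controls, the brighter 50% were kept for the main test, and these 23861 had a mean of at least 5.21. The kept set holds 5 of the subunit probe sets, from 4 genes (GABRA3, GABRB1, GABRB2 and GABRG1). The other 5 lie below that limit, where unspecific signal compresses differences, and their values come from the same fit run without the filter. LR replicate 3 stood apart from the other LR arrays in the mean of a list of markers of the thalamus, a neighbouring region, and in several of the genes below. Results are therefore also given without it.

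Alpha subunits, which form the GABA binding site with a beta subunit and decide whether classical benzodiazepines bind, were covered by 4 probe sets. GABRA3 encodes alpha 3, an alpha subunit of many aminergic and hypothalamic neurons in rodents, and lies on chromosome X of the pig assembly Sscrofa11.1. Its bright probe set had a lowest, median and highest value of 9.70, 10.29 and 10.75 in LR and of 8.90, 10.15 and 10.50 in HR. The groups overlapped over most of their range, but 4 HR arrays lay below every LR array, namely HR replicate 4 (8.90), HR replicate 5 (9.02), HR replicate 10 (9.33) and HR replicate 3 (9.59). These 4 arrays also had the 4 highest background control means of the series, from 4.24 to 4.44. LR replicate 5, the lowest LR array for GABRA3, came next in background at 4.22. The means, 10.21 ± 0.33 for LR and 9.87 ± 0.61 for HR (SD, n = 10 each), differed by -0.34 ± 0.21 (SE, 95% interval -0.77 to 0.08) with an adjusted p of limma of 0.861. Of the arrays, 7 had a background control mean over 1 SD from the mean of all arrays, 5 of them HR and 2 LR. Without these 7 the difference was -0.04. It was -0.24 when HR replicate 4 was left out and -0.25 when it was HR replicate 5. The dimmer probe set of GABRA3, at 4.48 ± 0.26 for LR and 4.34 ± 0.19 for HR, differed by -0.13 ± 0.11.

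GABRA2 and GABRA4 were both dim. GABRA2 encodes alpha 2, found in rodents at inhibitory synapses of limbic and hypothalamic neurons, and its values ran from 3.24 to 4.61 in LR (median 3.99) and from 3.17 to 4.60 in HR (median 3.62). Its means of 3.96 ± 0.43 and 3.77 ± 0.47 differed by -0.19 ± 0.19 (95% interval -0.58 to 0.21, adjusted p of limma 0.926). GABRA4 encodes alpha 4, which does not bind classical benzodiazepines and which, in rodents, sits outside synapses of thalamic and hippocampal neurons. Its values ran from 3.52 to 6.08 in LR (median 4.08) and from 3.32 to 5.10 in HR (median 3.98). The highest array was LR replicate 3, and its nearest LR neighbour was LR replicate 8 at 5.07. The means of 4.26 ± 0.78 and 4.10 ± 0.62 differed by -0.17 ± 0.29 (adjusted p of limma 0.952), and by 0.04 without LR replicate 3.

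**Figure D1:**
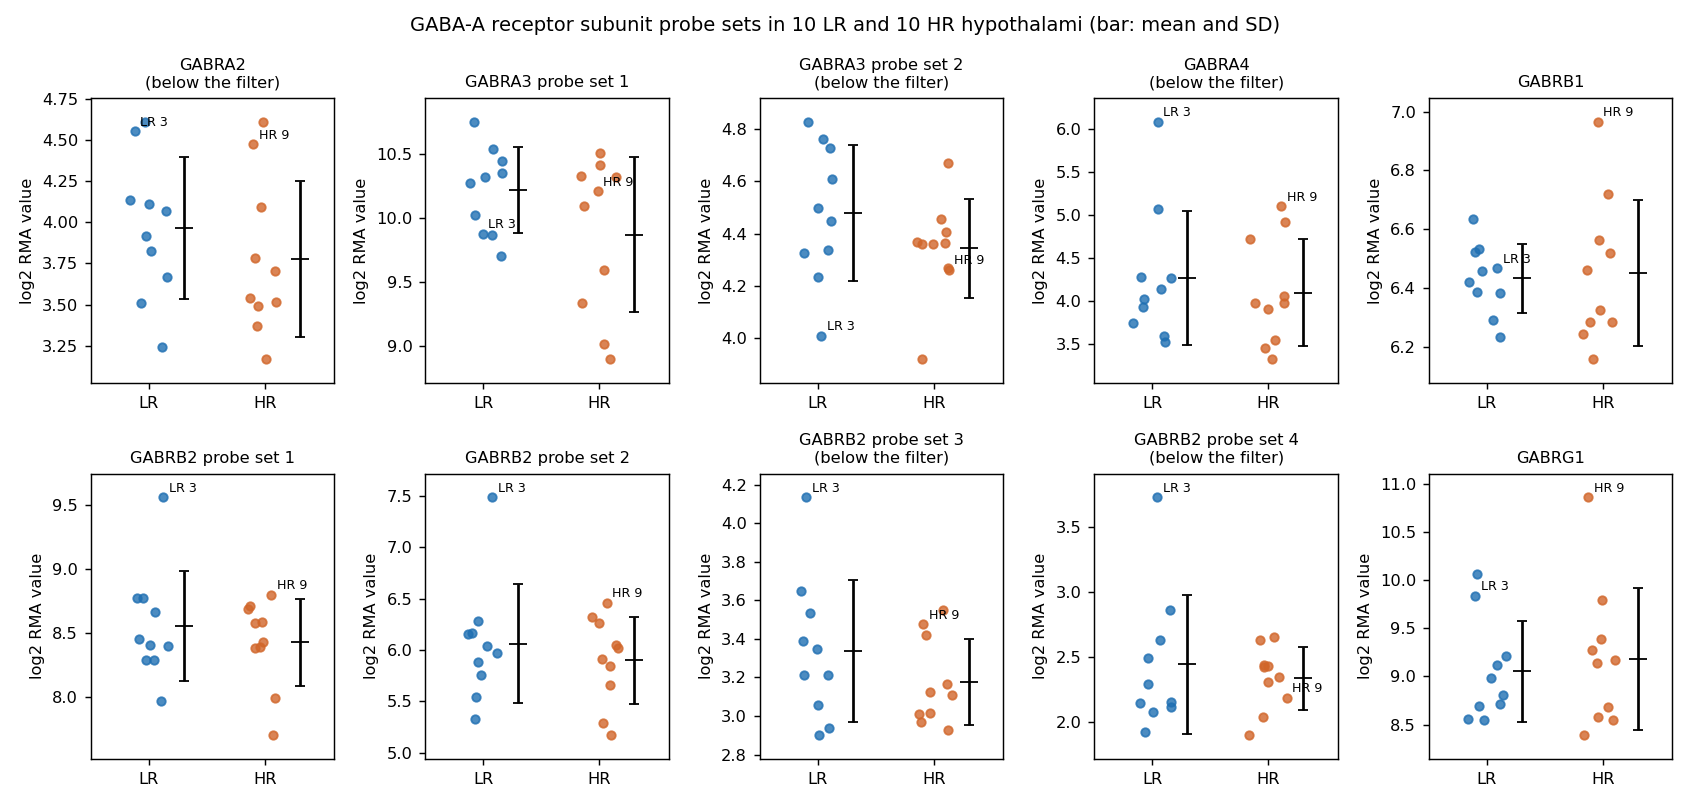
Log2 RMA value (vertical axis, own scale in each panel) of the 10 GABA-A receptor subunit probe sets in 10 LR and 10 HR hypothalami, with each point 1 array and the bar the mean and SD of a group. The groups overlap in every panel, and LR replicate 3 and HR replicate 9, to which the text returns, are named.

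Beta subunits are needed for the receptor to assemble and reach the membrane. GABRB1 encodes beta 1, and its single probe set can bind several transcripts, so its gene is uncertain. It had the smallest spread of the kept subunits, with values from 6.23 to 6.64 in LR (median 6.44) and from 6.16 to 6.97 in HR (median 6.39). The means were 6.43 ± 0.12 and 6.45 ± 0.25, a difference of 0.02 ± 0.10 (95% interval -0.18 to 0.22, adjusted p of limma 0.972), and 5 of 10 HR arrays lay on each side of the LR mean. Its highest array was HR replicate 9.

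GABRB2 encodes beta 2, the beta subunit of the most common synaptic receptor of the adult mammalian brain, and lies on chromosome 16. Its brightest probe set ran from 7.96 to 9.56 in LR (median 8.43) and from 7.70 to 8.80 in HR (median 8.50), so the LR median was the lower although the LR mean was the higher. LR replicate 3 held the highest value, and the next LR array had 8.77. The means of 8.56 ± 0.43 and 8.42 ± 0.34 differed by -0.13 ± 0.17 (95% interval -0.48 to 0.21, adjusted p of limma 0.893), and by -0.02 without LR replicate 3. The second kept probe set of GABRB2 had 6.06 ± 0.58 and 5.90 ± 0.42 (difference -0.16 ± 0.21, and -0.0019 without LR replicate 3), and LR replicate 3 was again the highest, at 7.49. The differences of the 2 dim probe sets were -0.16 ± 0.14 and -0.11 ± 0.18. The 2 kept probe sets correlated over the 20 arrays with r = 0.768 and rho = 0.654 (permutation test, adjusted p = 0.00245 and 0.0163 over 7 pairs of probe sets of 1 gene), and r was 0.404 without LR replicate 3 and HR replicate 5. The 2 probe sets of GABRA3 had r = 0.292 and rho = 0.284 (permutation adjusted p = 0.208 and 0.257), and with the background control mean removed by regression r was 0.663 (permutation adjusted p = 0.00486).

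GABRG1 encodes gamma 1, a gamma subunit with low affinity for classical benzodiazepines that in rodents is found in limbic and hypothalamic areas and in glia. Its values ran from 8.55 to 10.06 in LR (median 8.90) and from 8.39 to 10.86 in HR (median 9.16). HR replicate 9 was the highest of all 20 arrays, at 10.86, and LR replicate 8 came next. The means of 9.05 ± 0.52 and 9.18 ± 0.74 differed by 0.13 ± 0.27 (95% interval -0.42 to 0.68, adjusted p of limma 0.925). Without HR replicate 9 the difference of the means was -0.06, so in this fit without a covariate its sign rested on that array.

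No subunit probe set passed the test between HR and LR. Of the 5 kept probe sets, 0 passed the threshold of an adjusted p of 0.05 and 0 had an unadjusted p under 0.05, where over all 23861 kept probe sets 0% passed the threshold and 4.57% were under the unadjusted limit. None of the 5 dim probe sets was under that limit either, against 4.57% of all 47722 probe sets in the fit without a filter. An exact rank-sum test also gave 0 past the threshold and 0 at an unadjusted p under 0.05 among the kept subunits. Of the 4 kept genes 2 were higher and 2 lower in HR, with a median difference of -0.06, beside 5163 higher and 5154 lower and a median of 0.00 over 10317 named genes. With the median half-width of a 95% interval at 0.287 over the kept probe sets, the intervals of GABRA3, GABRB2 and GABRG1 were wider than that of a typical probe set, and the interval of GABRB1 was narrower.

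**Figure D2:**
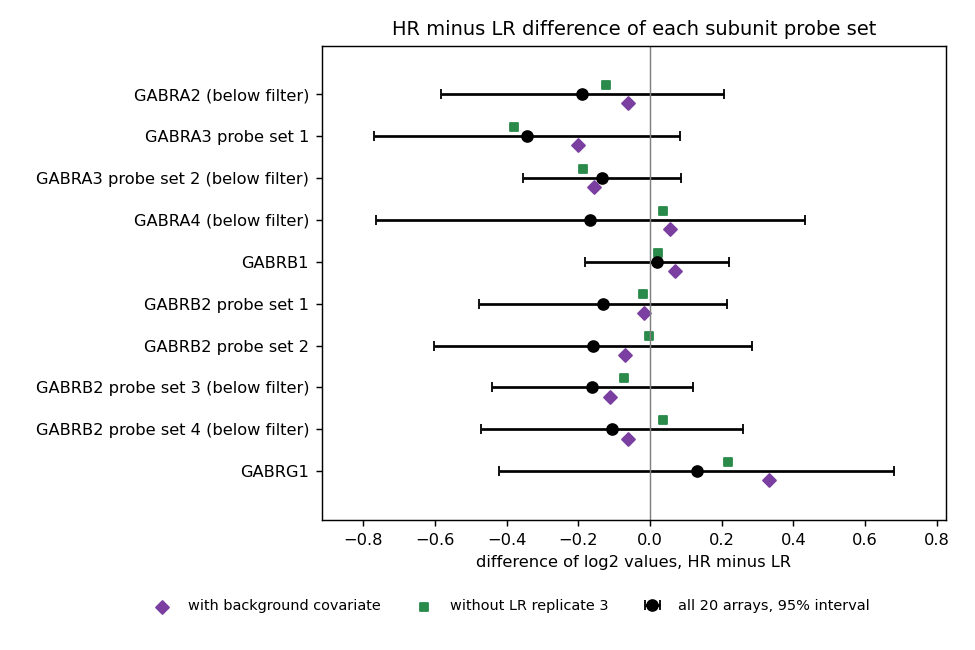
Difference of log2 values between HR and LR (horizontal axis) for the 10 subunit probe sets, with the 95% interval of limma over all 20 arrays in black, the difference with the background control mean as a covariate as a diamond and the difference without LR replicate 3 as a square. All 10 intervals include 0, and GABRA4 lies on the other side of 0 under both alternatives.

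The ratio of 2 subunits within an array was compared between the groups as well, since the make-up of the receptor depends on the balance of its subunits. Over the 6 pairs of kept genes the smallest p belonged to GABRA3 over GABRB1, whose log2 ratio averaged 3.78 ± 0.29 for LR and 3.42 ± 0.50 for HR (SD, n = 10 each) and differed by -0.36 ± 0.18 (SE, permutation p = 0.0620, adjusted over the pairs 0.281). The ratio of GABRA3 over GABRG1 differed by -0.47 ± 0.27 (permutation p = 0.0938, adjusted 0.281). The other 4 pairs had adjusted p between 0.435 and 0.633. Such a ratio compares arrays and not the amounts of the 2 transcripts, which cannot be read from different probes.

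All 6 measured subunits fell as the background control mean of the array rose. This was not particular to them, since the first principal component of the kept probe sets followed the same measure. Other genes followed it in either direction, such as the astrocyte gene AQP4 (r = -0.938) and the microglia gene TMEM119 (r = 0.941, both without a test). The share of all genes that do so was not counted. Among the subunits the correlation was strongest for GABRA4 (r = -0.824, rho = -0.719, permutation test, adjusted p = 6e-05 and 0.00081 over 6 genes) and weakest for GABRB1 (r = -0.664, rho = -0.588, adjusted p = 0.00116 and 0.00743). GABRA2, GABRA3, GABRB2 and GABRG1 had r = -0.743, -0.759, -0.772 and -0.784, with rho from -0.752 to -0.702 and adjusted p of at most 0.000984 for either. Without the 2 arrays farthest from the median background, HR replicate 5 and LR replicate 8, r lay between -0.787 (GABRA4) and -0.576 (GABRB1). Within LR it lay between -0.929 (GABRG1) and -0.507 (GABRA3), and within HR between -0.913 (GABRA4) and -0.701 (GABRA2). The 5 arrays of lowest background (at most 3.87, the next at 3.95) were LR replicates 3 and 8 and HR replicates 6, 8 and 9. These 5 were the 5 highest arrays for both GABRA4 and GABRG1, and 4 of them were among the 5 highest for GABRA2 and for GABRB2. For GABRA3 this held for 2 of them.

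With the background control mean as a covariate the difference between HR and LR was -0.20 ± 0.14 for GABRA3, 0.07 ± 0.07 for GABRB1, -0.02 ± 0.11 for GABRB2 and 0.33 ± 0.16 for GABRG1 (SE). The unadjusted p of limma for GABRG1 was then 0.0422 and the adjusted p 0.627. Without HR replicate 9 the GABRG1 difference in the same fit was 0.19, with an unadjusted p of 0.179. Without LR replicate 3 the same fit gave -0.27 for GABRA3 with an unadjusted p of 0.0315, and 0.35 for GABRG1 with 0.0394, and the adjusted p were 0.489 and 0.499. The part of the background in the group differences was not tested further, and a fall of a transcript per cell cannot be told apart from fewer cells that carry it in these pieces of tissue.

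**Figure D3:**
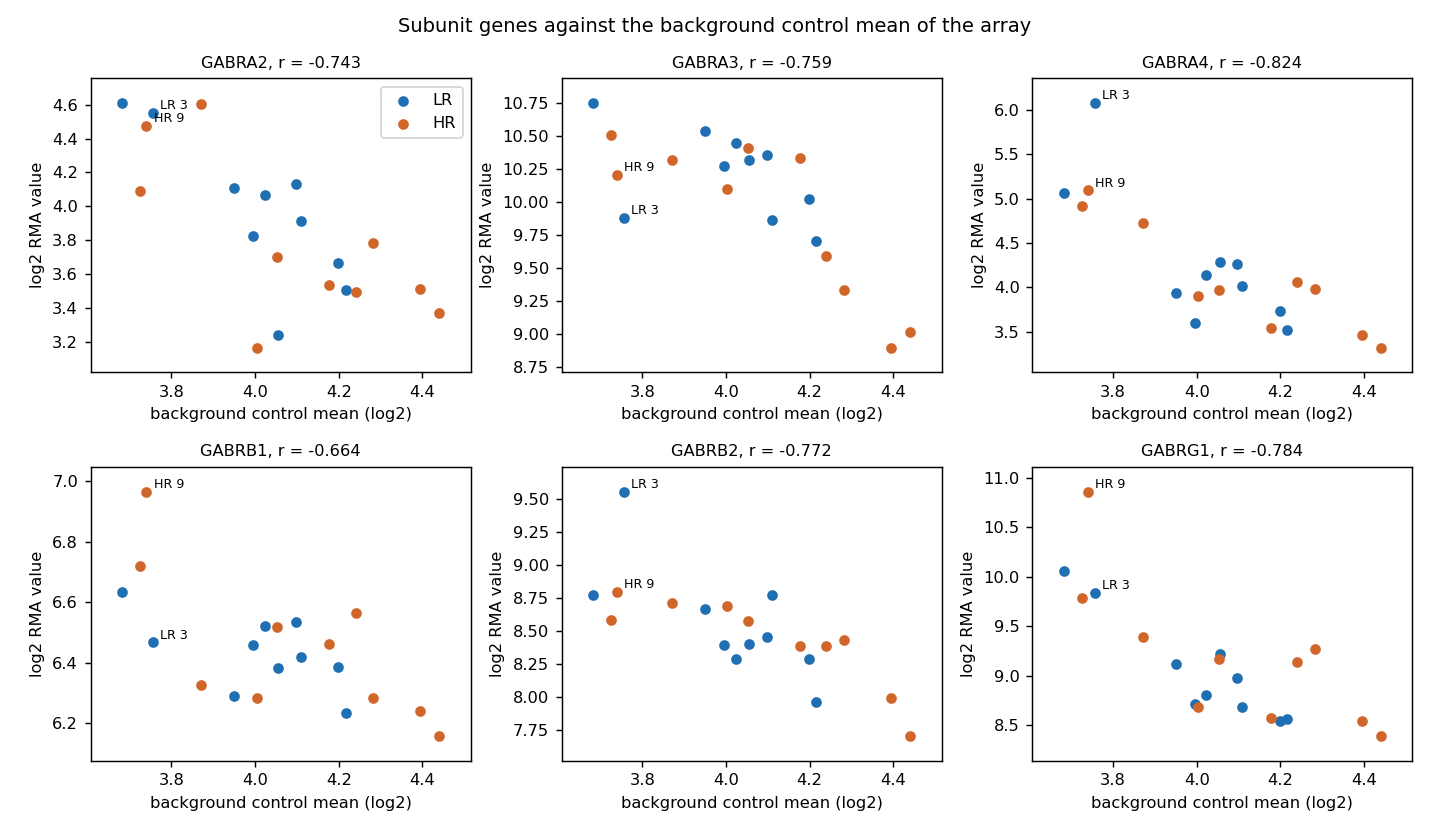
Log2 value of the 6 measured subunit genes (vertical axis, brightest probe set of each) against the background control mean of the array (horizontal axis, log2), with each point 1 array in LR or HR colour. All 6 panels slope downward, from r = -0.664 for GABRB1 to r = -0.824 for GABRA4.

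As deposited, the subunit values varied together over the arrays, and all 6 genes also followed the background control mean. How many pairs of other genes vary together in this way was not counted. Of the 15 pairs of the 6 genes, 10 had a Pearson correlation with an adjusted p under 0.05 in the permutation test, and all 15 values of r were above 0, from 0.395 to 0.837. GABRA4 with GABRB2 had r = 0.837 and rho = 0.731 (permutation adjusted p = 0.00015 and 0.0027), with 0.717 without LR replicate 3. GABRA4 with GABRG1 had r = 0.836 and rho = 0.905 (permutation adjusted p = 0.0002 and 0.00015), with 0.914 without LR replicate 3 and HR replicate 9. GABRB1 with GABRG1 had r = 0.770 and rho = 0.624 (permutation adjusted p = 0.00093 and 0.00767), with 0.543 without HR replicates 9 and 5. The 5 pairs of GABRA3 had r between 0.395 and 0.529, and of these only GABRA3 with GABRB1 passed by Pearson's r (r = 0.529, rho = 0.555, permutation adjusted p = 0.0255 and 0.0204).

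Positions of the genes were set beside these pairs. In Sscrofa11.1 GABRG1, GABRA2, GABRA4 and GABRB1 follow each other on chromosome 8, with 1 other annotated protein-coding gene, between GABRA2 and GABRA4. The 6 pairs within this cluster had r between 0.524 and 0.836 and all 6 passed, while of the other 9 pairs, with r between 0.395 and 0.837, 4 passed. These ranges overlap, and the difference between the 2 kinds of pairs was not tested. GABRA2 and GABRA4, with means of 3.87 and 4.18 over all arrays, lie below the filter and within the range of the background control means. Of the 6 pairs only GABRB1 with GABRG1 holds neither, and the gene of the GABRB1 probe set is uncertain. After removal of the background control mean by regression, r lay between 0.06 and 0.54 within the cluster and between -0.62 and 0.56 for the other pairs.

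Fewer pairs passed once the background was removed. With the background control mean removed, 1 of the 15 pairs had an adjusted p under 0.05, and it was negative: GABRA3 with GABRA4 at r = -0.623 (permutation adjusted p = 0.0406), which was -0.424 without LR replicate 3. GABRA4 with GABRB2, GABRA4 with GABRG1 and GABRB1 with GABRG1 had r = 0.558, 0.539 and 0.538, each with a permutation adjusted p of 0.0693. When LR replicate 3 was left out these were 0.135, 0.744 and 0.566.

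**Figure D4:**
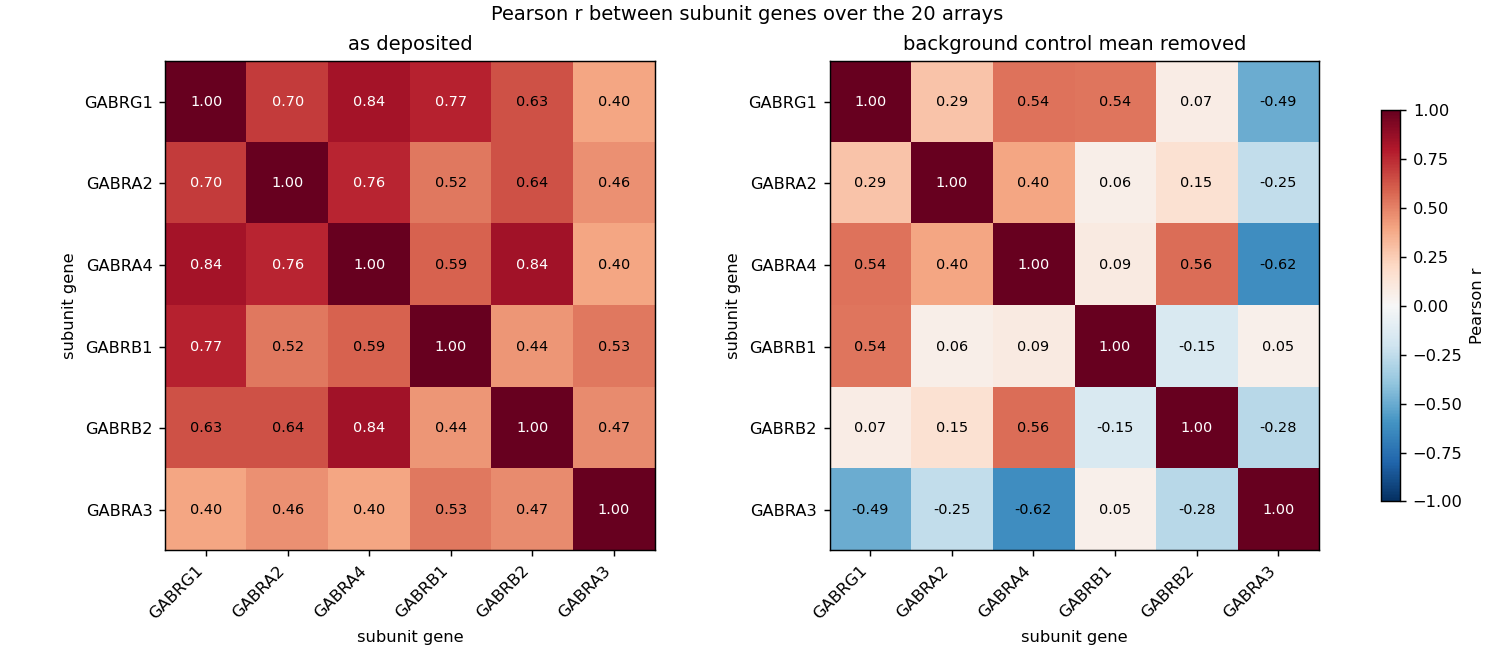
Pearson r between the 6 measured subunit genes over the 20 arrays, as deposited (left) and after removal of the background control mean by regression (right), on a colour scale from -1 to 1, with the 4 genes of chromosome 8 listed first. All values off the diagonal are above 0 on the left, and on the right GABRA3 with GABRA4 reaches -0.62.

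In all, 12 other GABA-A and rho subunit genes were listed, of which 5 have an annotated probe set and 3 were kept. GABRD, the delta subunit of receptors outside synapses, had a difference between HR and LR of 0.18 ± 0.11. GABRE, the epsilon subunit, had 0.10 ± 0.22, and GABRQ, the theta subunit, had -0.17 ± 0.20 (SE), while none of the 3 was under an unadjusted p of 0.05. GABRQ has a second, slightly dimmer kept probe set with a difference of -0.39 ± 0.22, and both can bind several transcripts. The brighter one had -0.30 without LR replicate 3, and -0.32 with array weights (unadjusted p of limma 0.0456, adjusted 0.594).

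GABRE, GABRA3 and GABRQ lie next to each other on chromosome X, with 1 other annotated gene between GABRE and GABRA3, and in rodents these 3 subunits are found together in the hypothalamus and in monoamine nuclei. GABRA3 and GABRQ rose and fell together over the animals (r = 0.719, rho = 0.814, permutation adjusted p = 0.00228 and 0.00063 over 18 pairs). This held within LR (r = 0.776) and HR (r = 0.751), without LR replicate 3 (r = 0.810) and with the background removed (r = 0.685, permutation adjusted p = 0.00477, and r = 0.528 when LR replicate 3 was also left out). Only the brighter probe set of GABRQ was used. How many other genes follow GABRA3 as closely was not counted, and RWDD2A, named below, had r = 0.977 with it. GABRA3 with GABRE had r = -0.033 (rho = 0.008, permutation adjusted p = 0.892 and 0.977) as deposited and 0.541 with the background removed (permutation adjusted p = 0.0485), or 0.239 when LR replicate 3 was also left out.

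GABRB2 went the other way from GABRE. Their correlation was r = -0.796 and rho = -0.680 (permutation adjusted p = 0.00063 and 0.00616), with -0.905 within LR, -0.577 within HR and -0.783 with the background removed (permutation adjusted p = 0.00414). LR replicate 3, which had the highest GABRB2 value, had the lowest GABRE value, 8.64, and the next LR array had 10.20. Without LR replicate 3 r was -0.600, without LR replicate 3 and HR replicate 5 it was -0.549, and with the background removed and LR replicate 3 left out it was -0.538. GABRA4 with GABRE had r = -0.666 but rho = -0.286 (permutation adjusted p = 0.0161 and 0.285), and r was -0.286 without LR replicate 3, so this relation rested on that array. GABRD, which joins alpha 4 in receptors outside synapses in rodents, fell as GABRA4 rose (r = -0.797, rho = -0.779, permutation adjusted p = 0.00036 and 0.00063), and with the background removed r was -0.455 (permutation adjusted p = 0.107). In all, 8 of the 18 pairs passed as deposited and 4 with the background removed. How many pairs of other genes would pass was not counted.

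**Figure D5:**
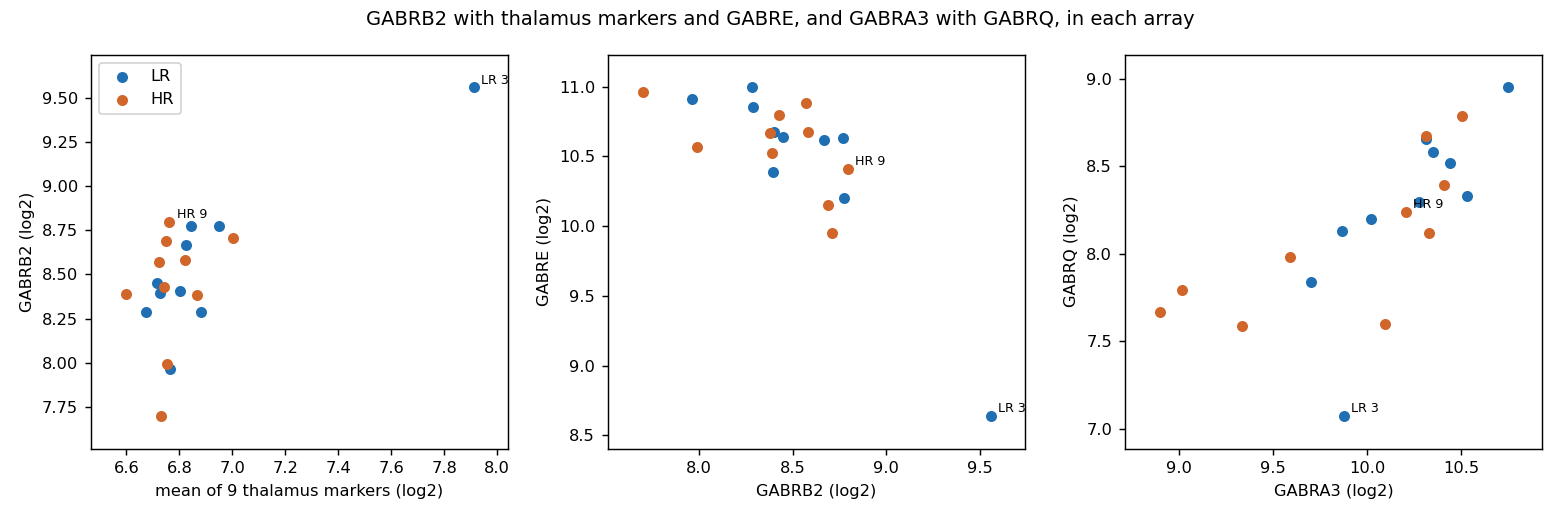
Each point is 1 array, in LR or HR colour, with log2 values on all axes: GABRB2 against the mean of 9 thalamus markers (left), GABRE against GABRB2 (middle) and GABRQ against GABRA3 (right). LR replicate 3 lies far from the other arrays in the left and middle panels, with 7.91 for the thalamus markers and 8.64 for GABRE, and GABRQ follows GABRA3 in the right panel with r = 0.719.

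Marker lists of other cell types and regions were set beside the subunits, because a piece of hypothalamus can carry neighbouring tissue. The genes of a list did not all move together. Against the background control mean the neuron markers SYT1 and SYN1 had r = -0.916 and 0.839, and the astrocyte markers SLC1A2 and ALDH1L1 -0.950 and 0.802. PDE10A and RGS9, of the striatum and pallium list, had -0.731 and 0.886 (all given without a test). The mean of a list therefore cannot be read as the amount of 1 cell type. Averaged over the 9 kept thalamus markers, LR arrays reached 6.91 ± 0.36 and HR arrays 6.77 ± 0.11 (SD, n = 10 each). In LR replicate 3 the average was 7.91, and the other arrays lay between 6.60 and 7.0. The mean of 12 hypothalamus markers was 7.83 in that array, and the next LR array had 8.44. In the 2 groups 8 of the 9 thalamus markers and 10 of the 12 neuron markers were lower in HR, 0 and 1 of them at an unadjusted p under 0.05. Over all 10317 named genes 5154 were lower and 5163 higher in HR, 349 and 83 of them at that limit.

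GABRB2 followed the mean of the neuron markers most closely (r = 0.917, rho = 0.811, permutation adjusted p = 7.5e-05 and 0.0003 over 30 pairs of a subunit and a list). This held without LR replicate 3 and HR replicate 5 (r = 0.809), within LR (r = 0.970) and HR (r = 0.884), and with the background removed (r = 0.779, permutation adjusted p = 0.0033, and r = 0.633 when LR replicate 3 was also left out). GABRB2 and GABRA4 also rose with the thalamus markers (r = 0.713 and 0.712, permutation adjusted p = 0.00351 and 0.00393), with rho = 0.456 and 0.421 (permutation adjusted p = 0.0556 and 0.0773). Without LR replicate 3 and HR replicate 6 these r were 0.314 and 0.285. With the background removed both passed (r = 0.710 and 0.756, permutation adjusted p = 0.0232 and 0.0213), but with LR replicate 3 also left out r was 0.292 and 0.330, so both relations rested mainly on that array. With the background removed GABRA3 went down as the thalamus markers went up (r = -0.576, permutation adjusted p = 0.0299, and r = -0.310 when LR replicate 3 was also left out), where as deposited r was -0.055 and rho -0.128 (permutation adjusted p = 0.857 and 0.610). All 6 subunits correlated with the astrocyte markers (r from 0.646 to 0.794) and, with negative sign, with the striatum and pallium markers (r from -0.822 to -0.692), but with the background removed 0 of these 12 pairs passed. GABRA4, GABRB2, GABRA2 and GABRG1 fell as the hypothalamus markers rose (r = -0.862, -0.858, -0.758 and -0.625, permutation adjusted p of at most 0.0087). GABRA3 and GABRB1 had r = -0.434 and -0.411 and did not pass by r. With the background removed 0 of the 6 pairs with hypothalamus markers passed. Of the 30 pairs 24 passed as deposited and 4 with the background removed. How many other genes would pass against these lists was not counted. The means of the neuron, astrocyte, striatum and pallium, and hypothalamus lists themselves followed the background control mean (r = -0.844, -0.946, 0.950 and 0.825, without a test). For the thalamus list r was -0.384. The part of tissue make-up in the group values was not tested.

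The genes whose pattern over the 20 arrays was most like that of a subunit were found among the 10317 named genes, by Pearson r and with no test. GABRA3 was most like RWDD2A (r = 0.977), RNF145, a ubiquitin ligase of the endoplasmic reticulum (0.971), and GPRASP2, which sorts G protein-coupled receptors (0.970). After removal of the group and the background, RWDD2A (0.954) and RNF145 (0.932) still headed the list of GABRA3. GABRG1 was most like the deubiquitinase USP8 (0.976), AHI1 (0.976) and ZNF644 (0.973), and after removal of group and background like ARHGAP5 (0.951), ARID4A (0.943) and CCPG1 (0.936).

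GABRA4 was most like KCNIP4, a partner of A-type potassium channels (0.967), LRPPRC (0.964) and the neuronal bicarbonate transporter SLC4A10 (0.962), and after the removal like KCNIP4 (0.905), OXR1 (0.893) and LRPPRC (0.893). With LR replicate 3 left out, LRPPRC (0.959) lay above SLC4A10 (0.955) and KCNIP4 (0.945), and after the removal LRPPRC (0.854) above OXR1 (0.841) and KCNIP4 (0.832). GABRB2 was most like the cadherin CDH6 (0.927), PDZRN4 (0.920) and RGS6, a regulator of G protein signalling (0.914), and after the removal like DGKI (0.863), COL25A1 (0.839) and CDH6 (0.824), which without LR replicate 3 were 0.788, 0.710 and 0.709. GABRB1 was most like WDPCP (0.857), RFX3 (0.840) and UBE2U (0.837), of which the ciliary gene WDPCP (0.811) led also after the removal, before ZAR1L (0.711) and BBS9 (0.710). GABRA2 was most like AZIN1, ATF2 and PTPN12 (0.863 each), and after the removal like ZNF575 (0.734), TMX3 (0.727) and AFTPH (0.716). Without LR replicate 3 the 18 values as deposited lay between 0.840 (RFX3 with GABRB1) and 0.983 (RNF145 and RWDD2A with GABRA3).

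Genes that act with the receptor were described from 4 further lists. None had a member at an unadjusted p under 0.05 over all 20 arrays and without a covariate. Of the 16 kept genes for clustering, assembly and traffic, 8 were higher and 8 lower in HR, with a median difference of -0.02. NSF, an ATPase that takes part in receptor insertion, averaged 11.29 ± 0.37 for LR and 10.81 ± 0.75 for HR (SD, n = 10 each) and differed by -0.48 ± 0.25 (SE, unadjusted p of limma 0.0658). With the background as a covariate NSF had -0.28 (unadjusted p of limma 0.0315, adjusted 0.627), and it was under 0.05 in 7 alternative settings in all. Several of these settings share the background or a measure that follows it. Without the 7 arrays of extreme background, 5 HR and 2 LR, NSF had -0.03 (unadjusted p of limma 0.846). With the neuron markers as a covariate it had -0.14 (unadjusted p of limma 0.287). The dystrophin gene DMD, whose protein sits at inhibitory synapses, had -0.29 ± 0.30 and GABARAPL2, of the GABARAP family, had -0.11 ± 0.08, and -0.15 with the background as a covariate (unadjusted p of limma 0.0312, adjusted 0.627, under 0.05 in 4 settings). GPHN, which encodes the scaffold gephyrin, had -0.17 ± 0.20 and was named for its role after its values were seen. Of these NSF and DMD had r = -0.878 and -0.943 with the background control mean (given without a test).

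For the chloride gradient and endogenous modulators 3 of 6 kept genes were higher and 3 lower (median -0.01). DBI, the precursor of peptides that act at the benzodiazepine site, had a difference of -0.09 ± 0.08, the kinase gene STK39 -0.08 ± 0.13 and TSPO 0.04 ± 0.16. Of the 6 kept genes for GABA synthesis, transport, breakdown and GABA-B receptors 2 were higher and 4 lower (median -0.08). GABBR2, a subunit of the metabotropic GABA-B receptor, averaged 10.38 ± 0.54 for LR and 10.05 ± 0.28 for HR and differed by -0.32 ± 0.18 (unadjusted p of limma 0.0911). The difference of GABBR2 was -0.17 without LR replicate 3, its highest array. The vesicular transporter gene SLC32A1 had 0.23 ± 0.18 (0.34 without HR replicate 9, unadjusted p of limma 0.0478) and the GABA breakdown gene ALDH5A1 -0.14 ± 0.10. Glycine receptors are the sister chloride channels of the same family, and 2 of 4 kept genes were higher and 2 lower (median -0.08), with GLRB at -0.23 ± 0.22, GLRA1 at 0.11 ± 0.14 (0.23 without HR replicate 9, its lowest array, unadjusted p of limma 0.0332) and GLRA2 at -0.19 ± 0.31.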

How the data were processed

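Hypothalamus RNA of 20 pigs was hybridised to 1 array each, and the replicate numbers, given in accession order, only name the arrays. Nothing in the labels beyond the animal titles states how the samples were handled in batches. The deposited log2 values were made by the authors: the arrays were processed in GCOS 1.1.1 and normalised by RMA, which equalises the distribution of values between arrays, so a shift of most transcripts in one direction cannot be seen. A detection filter that the authors applied later does not show in the deposited values, where every probe set is listed. No detection call was used here. A single symbol was annotated for 26426 probe sets, among them 16415 kept ones. The probe sets of DMD and SLC32A1, like those of GABRB1 and GABRQ, can bind several transcripts. Chromosomes and neighbours are those of RefSeq on Sscrofa11.1, and no build is named for the array files in the sources used here. No sequence is printed.

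The 2 groups were compared by lmFit and eBayes of limma 3.58.1 under R 4.3.3, coded as HR minus LR, and p-values were adjusted by Benjamini-Hochberg across all kept probe sets. The brightest kept probe set stood for a gene, and for GABRA2 and GABRA4 the only one. Correlations were computed for all 6 measured genes, the dim ones included, with 100000 two-sided permutations (smallest possible p 1e-05, numpy 2.4.6 in Python 3.11.15). On data simulated from residuals of the 23861 kept probe sets, limma found 54% of the 100 with an added change of 0.5 and 88% of the 100 with a change of 1, and it made 15 false calls. The changes were added to randomly drawn probe sets under 1 random relabelling of the arrays. These shares therefore do not give the chance of finding such a change in the subunits. GABRA3, GABRB2 and GABRG1 had wider intervals than a typical probe set. The subunits and gene lists were chosen with earlier results of these data known. Named genes are all subunit probe sets, the 3 genes of smallest p in each pathway list, and the 3 genes of highest r with each subunit, as deposited and after removal of group and background. Marker lists of the thalamus, neurons, astrocytes, striatum and pallium, and hypothalamus had median differences between HR and LR of -0.10, -0.22, -0.03, 0.17 and 0.09, with 0, 1, 0, 1 and 0 genes at an unadjusted p under 0.05. The list of Y-linked genes had 1 measured gene, EIF1AY, which correlated with the background at r = -0.969, differed by -0.26 and served as a covariate only. The lists of oligodendrocyte, microglia, endothelium, and ependyma and choroid plexus markers had median differences between HR and LR of 0.01, 0.11, -0.11 and 0.19, with 0, 0, 1 and 0 genes at an unadjusted p under 0.05. The comparison of ratios, the correlations with other subunits, the fits without arrays of extreme background and the fits and correlations that combine the background with a left-out array were chosen after seeing the data.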

Additional observations from a re-analysis of the deposited data

Results flagged for a closer look

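A sample was called apart when its gap to the nearest array of its group was larger, relative to the group's range, than Dixon's 95% critical value, and 8 of 70 sets of 10 values met this, where chance gives about 1 in 20. In LR replicate 3, 5 values were the highest of the LR group: GABRB2 at 9.56 in its brightest probe set (next 8.77), 7.49 in the second (next 6.29) and 3.73 in probe set 4 (next 2.86), GABBR2 at 11.80 (next 10.64) and the mean of the thalamus markers at 7.91 (next 6.95). In the same array GABRE at 8.64 (next 10.20) and the mean of the hypothalamus markers at 7.83 (next 8.44) were the lowest of the LR group. The glycine receptor gene GLRA1 was lowest in HR replicate 9, at 6.74 (next 7.62), the array with the highest GABRG1 value. The 8 values are not independent, because 7 of them come from 1 array.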

How the results depend on the processing

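No paired analysis was possible because the replicate numbers were given in accession order and name arrays only. Over 36 alternative settings, 343 differences of the subunits were computed, of which 33 changed sign and 0 passed the threshold (smallest adjusted p 0.486), and 36 of 508 differences of the named pathway genes changed sign. The count of probe sets past the threshold was 0 in each setting that was run. The median over the kept subunits lay between -0.13 (brightest 25%) and 0.09 (neuron markers as a covariate). The first of these covers only GABRA3, GABRB2 and GABRG1, with their differences as in the main fit, because GABRB1 is not among the brightest 25%. With 1 array left out the median lay between -0.12 (HR replicate 9) and 0.00 (LR replicate 3). The number of kept subunit probe sets at an unadjusted p under 0.05 was 1 in place of 0 with the background, the first principal component or the Y-linked gene as a covariate, and 2 with the background as a covariate and LR replicate 3 left out. The dim probe set of GABRA3 had -0.20 (unadjusted p 0.0441) with the thalamus markers as a covariate. The pairs of subunits that passed numbered 10 of 15 as deposited, 14 without LR replicate 3 and 1 with the background removed. Against the background control mean 6 of 6 subunits passed as deposited, without the 2 farthest arrays and within HR, and 4 of 6 within LR. With marker lists 24 of 30 pairs passed, or 23 without the 2 farthest arrays. The cause of these changes was not tested.

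The differences that changed sign, HR minus LR, were the following. Centring each array on its median gave GABRB1 -0.00058. Array weights gave GABRB2 0.032 and 0.056 in its probe sets 1 and 2 and GABRE -0.033. The rank-sum test gave GABRB1 -0.0069, probe set 4 of GABRB2 0.013 and GABRE -0.031. The background as a covariate gave GABRA4 0.055, STK39 0.018, TSPO -0.089 and GLRA2 0.074, and the first principal component gave the same genes 0.054, 0.016, -0.082 and 0.067. The thalamus markers as a covariate gave GABRA4 0.084, GABRB2 0.0058, 0.030 and 0.047 (probe sets 1, 2 and 4), GABRE -0.13 and GLRA2 0.0058. The neuron markers gave GABRA2 0.0070, GABRA4 0.21, GABRB2 0.10, 0.043 and 0.010, GABRE -0.14, DMD 0.11, STK39 0.067, TSPO -0.13, GLRA2 0.22 and GLRB 0.091. The Y-linked gene gave GABRA4 0.036, TSPO -0.068 and GLRA2 0.029. Leaving out LR replicate 3 gave GABRA4 0.035, probe set 4 of GABRB2 0.035 and GABRE -0.098. GABRB1 was -0.0028 without LR replicate 5, -0.010 without HR replicate 8 and -0.038 without HR replicate 9, where GABRG1 was -0.057. TSPO was -0.0043 without LR replicate 8, -0.017 without HR replicate 4 and -0.019 without HR replicate 5. With 1 array left out at a time, GABRA4 lay between -0.28 and 0.04, GABRB1 between -0.038 and 0.052, probe set 4 of GABRB2 between -0.17 and 0.04, GABRG1 between -0.06 and 0.24, GABRE between -0.10 and 0.17 and TSPO between -0.02 and 0.13. Leaving out the 7 arrays of extreme background gave GABRA4 0.11, GABRB2 0.14 and 0.018 (probe sets 1 and 4), GABRE -0.22, DMD 0.057, STK39 0.055, GLRA2 0.14 and GLRB 0.046. The background as a covariate without HR replicate 9 gave GABRA4 0.042, GABRB2 0.00028 and 3.2e-05 (probe sets 1 and 4), GABRE -0.029, STK39 0.024, TSPO -0.071 and GLRA2 0.090. Without LR replicate 3 it gave GABRA4 0.16, GABRB2 0.042, 0.036 and 0.044, GABRE -0.13, STK39 0.026, TSPO -0.069, GLRA2 0.12 and GLRB 0.018. GABRA2 and GABRA4 lie near the background signal, and the number of arrays limits the precision of all differences.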
